A study of Mus musculus with 14 samples.

Results

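Mouse bone marrow cells enriched for hematopoietic stem cells were taken after 1 day of interleukin-1 beta (IL-1β), and their response was measured by RNA sequencing in 6 of the 14 libraries of the study. The 6 were taken by their treatment labels: 3 libraries of C57BL/6 mice given IL-1β intraperitoneally at 0.5 µg per mouse per day for 1 day, and 3 of C57BL/6 mice given phosphate-buffered saline (PBS) for 1 day. The other 8 libraries, 4 with IL-1β at the same dose and 4 with PBS, came from mice treated for 20 days. The cells were sorted as SLAM cells, which lack lineage markers, Flk2 and CD48 and carry Sca-1, Kit and CD150. Each library is a separate biological sample pooled from 3 to 5 mice, per the series' design text, so no value belongs to a single animal. No genotype, age or sex is given in the sources used here. Of 24833 genes in the table, 15466 had enough counts to be tested.

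IL-1β is an inflammatory cytokine made mainly by myeloid cells. It binds a receptor formed by the products of Il1r1 and Il1rap and signals through Myd88 to the NF-kB transcription factors. Long-term hematopoietic stem cells are mostly out of cycle at rest, and inflammatory cytokines are known to draw them into division. Entry into division turns on replication genes through E2F factors and later mitotic genes through the CHR element and CCAAT boxes of their promoters. Interferons act through STAT and IRF factors, the latter bound at the interferon-stimulated response element, ISRE.

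The 6 libraries held 21654896 to 27709611 counts, so that 3 counts in a library amount to 0.108 to 0.139 CPM, which puts every library on the same total. Values below are CPM in the order replicate 1, 2 and 3. Replicates 1 and 2 of each group carry the title tag E060216 and replicate 3 the tag 10k, a difference whose meaning is not stated. The 10k libraries stood apart in immediate early genes, which switch on within minutes of stress: the 35 listed genes summed to 6838, 8511 and 19911 CPM with PBS and to 4408, 5603 and 14114 CPM with IL-1β. Mitochondrial transcripts made up 0.586%, 0.389% and 0.457% of counts with PBS and 0.268%, 0.314% and 0.475% with IL-1β. Each log2 fold change compares IL-1β with PBS, is given ± SE, and is called when its adjusted p is under 0.05. It comes from edgeR's quasi-likelihood test with a term for the title tag and Benjamini-Hochberg adjustment over all 15466 genes. In bulk samples, fewer cells of a type and less RNA per cell cannot be told apart.

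The genes of the sort were checked first. Kit was at 1328, 1664 and 836 CPM with PBS and at 1111, 1205 and 634 CPM with IL-1β. Slamf1, which encodes CD150, was at 55.6, 58.2 and 57.0 CPM with PBS and at 59.9, 64.5 and 46.4 CPM with IL-1β. Ly6a, the Sca-1 gene, was at 112, 121 and 116 CPM with PBS and at 117, 120.3 and 110.2 CPM with IL-1β. All were present in every library and overlapped between the groups. Flt3, whose product Flk2 the sort selects against, was at 41.9, 62.9 and 45.9 CPM with PBS and at 42, 50.7 and 42.1 CPM with IL-1β, so its RNA was present in cells sorted as negative for the protein. Cd48 was at 3.78, 3.97 and 6.01 CPM with PBS and at 8.64, 8.70 and 10.2 CPM with IL-1β, groups that did not overlap, with a log2 fold change of 1.02 ± 0.30 that was not called (adjusted p = 0.0677). The fit of the 1-day libraries alone called it (adjusted p = 0.0208).

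After 1 day of IL-1β, 672 of 15466 genes were called (4.35%), 389 of them higher (2.52% of those tested) and 283 lower (1.83%). The list counts below are to be read against these shares. Members of 13 cell cycle lists made up 39.1% of the genes called higher, and 14 of them rose by at least 2-fold, while 44 of the 58 genes that rose by at least 2-fold lay outside these lists. Most genes called lower, 209, lay in none of the 63 lists. The others included 10 guanylate-binding or immunity-related GTPase genes, 6 cytokine genes and 7 stem cell markers. The median fold change was 1.66 among genes called higher and 1.63 among genes called lower, and 70 genes fell by at least 2-fold. The genes called higher had a median of 64.1 CPM with PBS, against 46.4 CPM for those called lower and 26.1 CPM for all genes tested. Genes with more counts are easier to call, and the part of this in the medians was not tested.

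The medians by title tag were 0.53 (10k) and 0.82 (E060216) on the log2 scale for genes called higher, and -0.63 and -0.73 for those called lower. The fit that chose these genes used the same values, so the shared sign is no separate evidence. Across all genes tested, the log2 differences of the tags had a Pearson's r of 0.05, and across the 9691 genes with at least 10 CPM with PBS an r of 0.46, a description over genes, which are not independent. Of the genes called, 189 (140 higher and 49 lower) stayed called in all 14 fits that left out 1 library. Leaving out PBS replicate 1 or 2 gave 331 or 239 calls, leaving out replicate 1 or 2 of IL-1β gave 228 or 329, and leaving out replicate 4 of PBS at 20 days gave 1244. With upper-quartile scaling in place of TMM scaling, 344 genes were called higher and 399 lower, so the larger direction turned while the median of all genes moved from -0.01 to -0.06.

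**Figure D1:**
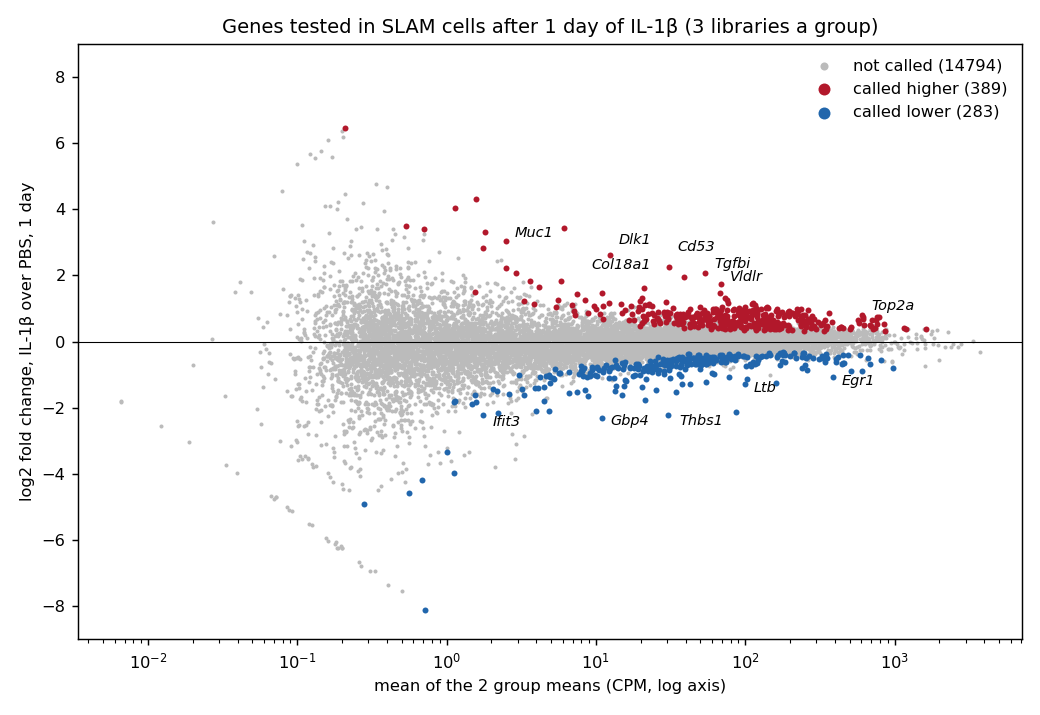
Each point is 1 of 15466 genes tested, with the mean of the PBS and IL-1β group means in CPM on a log axis and the log2 fold change of IL-1β over PBS at 1 day on the vertical axis. Red points are the 389 genes called higher and blue points the 283 called lower. All but 58 of the red points lie under 2-fold, and Tgfbi, Vldlr and Cd53 are labelled among the 58.

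Genes of mitosis rose together. Of 25 mitotic cyclins, kinases and phosphatases, 21 rose and none fell, with a median log2 fold change of 0.89 against -0.01 over all genes tested. Of 39 genes of the chromosomal passenger complex, the kinetochore and the centromere, 28 rose (median 0.78), and of 30 spindle kinesins and microtubule factors, 23 rose (median 0.80). All 39 members of the kinetochore list had a positive fold change, and the groups did not overlap for 35 of them, against 8.75% of all genes tested in that direction. The kinetochore count was 15 without PBS replicate 2 and 17 without IL-1β replicate 1. The other 2 counts moved by less than 1.5 times in every fit that left out 1 library.

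Ccnf, which encodes cyclin F, was at 83.4, 67.3 and 59.2 CPM with PBS and at 176, 152 and 138 CPM with IL-1β. Kif2c, a kinesin gene that corrects attachment of chromosomes to the spindle, was at 76.0, 63.8 and 66.8 CPM with PBS and at 161, 166 and 132 CPM with IL-1β. Every IL-1β library was above every PBS library for both genes, with log2 fold changes of 1.16 ± 0.11 (adjusted p = 0.00012) and 1.15 ± 0.12 (adjusted p = 0.000233). Espl1, the gene of separase, which cuts cohesin at anaphase, was at 63.8, 67.4 and 62.7 CPM with PBS and at 136, 130.3 and 134 CPM with IL-1β, and it rose by 1.04 ± 0.10. Its libraries lay within a narrow band in each group, whatever the title tag. Cenpa, the centromeric histone gene, rose by 0.80 ± 0.09.

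Condensin and cohesin genes, which compact and hold chromosomes, rose in 10 of 20 cases (median 0.49). Ncapd2, a condensin subunit gene, was at 251, 239 and 279 CPM with PBS and at 473, 463 and 471 CPM with IL-1β. It rose by 0.87 ± 0.08 (adjusted p = 0.00011), with no overlap. Of 21 genes of the anaphase-promoting complex and its partners, 7 rose (median 0.19), and that count was 4 without either E060216 replicate of PBS or either of IL-1β. Of 33 genes of homologous recombination and the Fanconi pathway, which repair broken or crosslinked DNA, 17 rose (median 0.69). Rad54l, a recombination motor gene, was at 78.7, 85.2 and 86.4 CPM with PBS and at 167, 156 and 135 CPM with IL-1β, and it rose by 0.87 ± 0.12. Without PBS replicate 2 the recombination count was 9, and it was 10 without PBS replicate 1, IL-1β replicate 1 or IL-1β replicate 2.

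Replication genes also rose, with counts that rested on single libraries. Of 30 genes of origins and the replicative helicase, 17 rose (median 0.57), and 5 or 4 rose without PBS replicate 1 or 2, and 3 or 7 without replicate 1 or 2 of IL-1β. Of 30 genes of fork polymerases and clamps, 12 rose (median 0.53), and the same 4 fits gave 5, 4, 5 and 7, while leaving out PBS 20-day replicate 4 gave 26. All 30 fork genes had a positive fold change. Cdc6, which loads the helicase onto origins, was at 68.7, 82.7 and 74.8 CPM with PBS and at 139, 144 and 110.3 CPM with IL-1β, and it rose by 0.79 ± 0.12. Lig1, the ligase gene that joins Okazaki fragments, was at 183, 196 and 242 CPM with PBS and at 350.0, 338 and 360.1 CPM with IL-1β, and it rose by 0.76 ± 0.13. Neither gene overlapped between the groups. Rrm2 and Tk1, which supply deoxynucleotides, rose by 0.98 ± 0.11 and 0.98 ± 0.14, among 6 of 30 nucleotide synthesis genes that rose (3 without PBS replicate 2).

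In G1, the phase before replication, 6 of 21 cyclin and kinase genes rose (28.6%) and 1 fell (4.76%), with a median of 0.30. The number that rose was 3 without any 1 of the 4 E060216 libraries. Cdk6, a G1 kinase gene, was at 172, 191 and 207 CPM with PBS and at 311, 280.0 and 306 CPM with IL-1β, and it rose by 0.66 ± 0.10. E2f8, which encodes a repressor among the E2F factors, rose by 0.93 ± 0.12. Ccnd2, a D-type cyclin gene, was at 491, 438 and 552 CPM with PBS and at 282, 313 and 362 CPM with IL-1β. It fell by 0.63 ± 0.11, the opposite of its partner Cdk6, and its groups did not overlap (adjusted p = 0.0578 without IL-1β replicate 1). Of 41 replication-dependent histone genes, 1 rose (2.44%) and 2 fell (4.88%), although their median was 0.66.

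The 13 lists of cell cycle genes held 337 genes tested, of which 152 were called higher and 4 lower. Nuclear pore and import genes lie outside them, and 9 of 37 rose (median 0.37; 3 without PBS replicate 2, 4 without IL-1β replicate 1 and 18 without PBS 20-day replicate 4). Kpna2, an importin gene, was at 113, 91.5 and 75.1 CPM with PBS and at 235, 215 and 126 CPM with IL-1β, and it rose by 1.01 ± 0.12. Dnmt1, the maintenance DNA methyltransferase gene, rose by 0.65 ± 0.11.

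**Figure D2:**
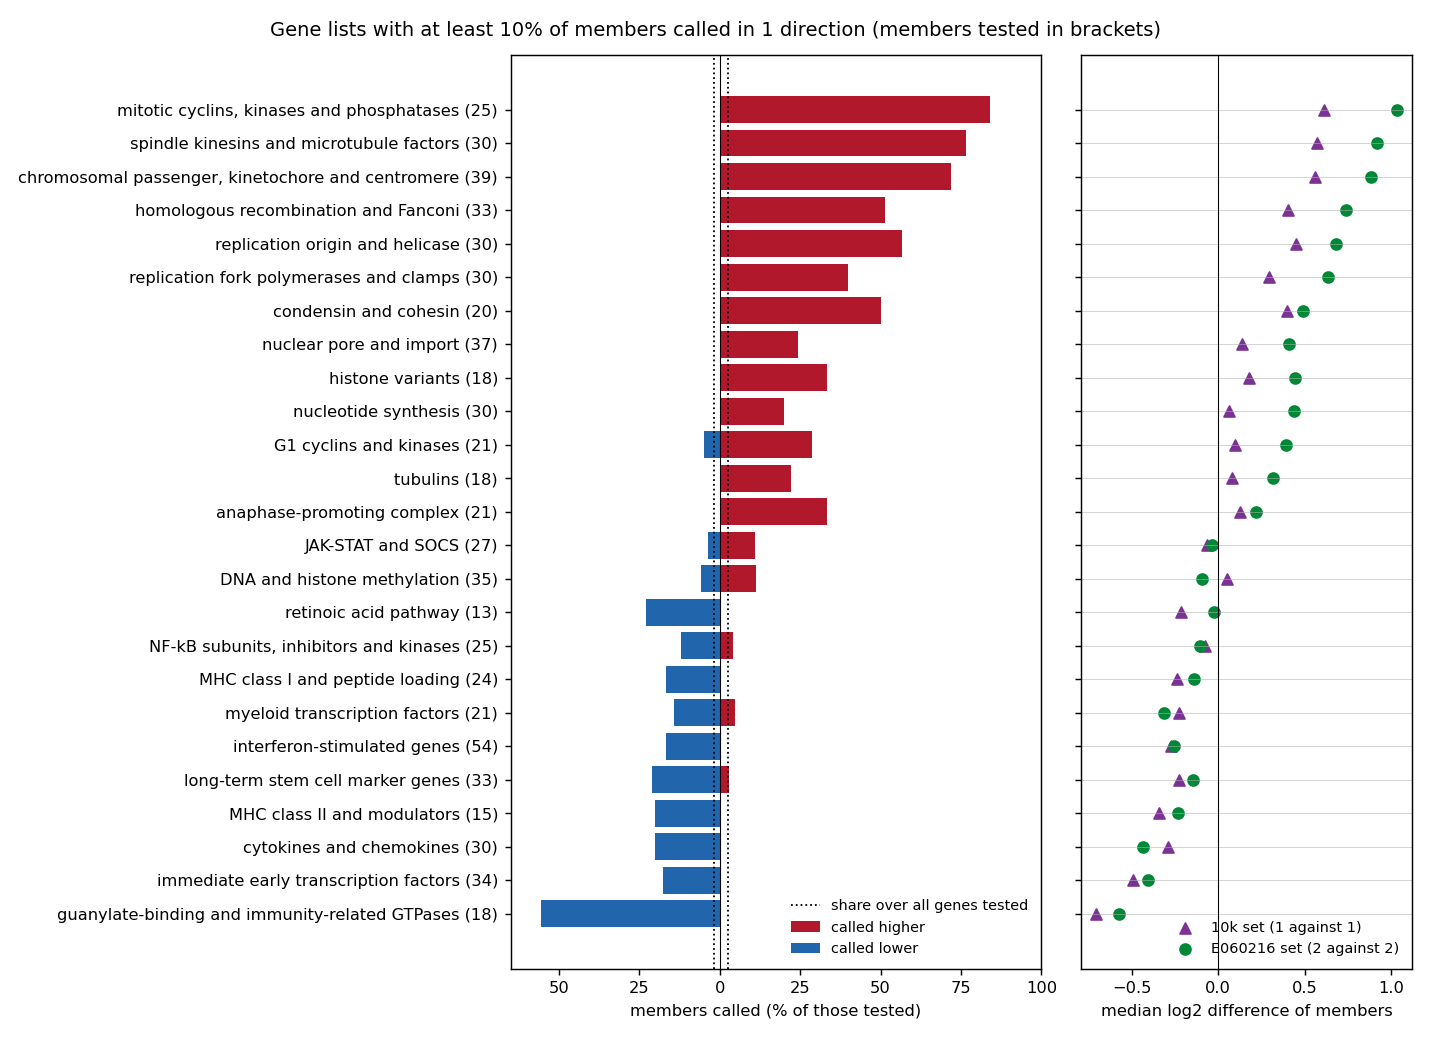
On the left, bars give the percentage of each list's tested members called higher (red) or lower (blue), with dotted lines at the shares over all genes tested, 2.52% and 1.83%. On the right, the median log2 difference of the members is shown for the 10k libraries (triangles) and the E060216 libraries (circles). Lists of mitosis and replication lie to the right in both, with smaller medians in the 10k libraries, and the guanylate-binding protein list lies to the left in both.

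Promoters of genes called were searched for short motifs, because both the mitotic and the interferon genes are known for theirs. RefSeq promoters (GRCm38.p6, 250 bases before to 50 after the start) matched 10632 of the genes tested by symbol. The CHR (TTTGAA) and the CCAAT box (CCAAT), each on either strand, were both in 4.95% of these promoters, in 19.9% of the 296 called higher, in 50.9% of the 53 called higher in the mitosis lists and in 3.43% of the 204 called lower. The E2F motifs (TTTCCCGC or TTTGGCGC) were in 3.01% of all promoters, 9.80% of those called higher and 32.1% of the 28 called higher in the replication lists. CHR and CCAAT matches shared bases in 12 promoters, and CHR and E2F matches in none. Genes called higher outside the cell cycle lists had both CHR and CCAAT in 10.3% of 175 promoters. Mitosis and replication genes are known for these motifs, and members of their lists that were not called were not counted. Whether the shares differ between members that rose and the rest was not tested. These are shares of letters in a window and do not show a bound site.

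Top2a, the topoisomerase gene that untangles replicated chromosomes, and Mki67, the gene of the proliferation marker Ki-67, are shown as examples of promoters with several matches. Both are printed 5′ to 3′ on the gene's strand as the 200 bases before the RefSeq start, with CHR and CCAAT matches on either strand in capitals (Top2a chr11:99024190-99024389, minus strand; Mki67 chr7:135716380-135716579, minus strand). Top2a was at 449, 489.6 and 433 CPM with PBS and at 912, 788 and 624 CPM with IL-1β, and it rose by 0.75 ± 0.11. Mki67 was at 194, 173 and 246 CPM with PBS and at 305, 323 and 339.7 CPM with IL-1β, and it rose by 0.67 ± 0.11. Both genes were chosen after their values were seen, and neither overlapped between the groups.
Top2a: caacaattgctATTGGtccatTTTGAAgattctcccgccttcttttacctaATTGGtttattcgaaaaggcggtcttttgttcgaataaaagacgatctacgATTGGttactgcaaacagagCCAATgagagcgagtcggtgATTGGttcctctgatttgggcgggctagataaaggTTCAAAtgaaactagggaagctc
Mki67: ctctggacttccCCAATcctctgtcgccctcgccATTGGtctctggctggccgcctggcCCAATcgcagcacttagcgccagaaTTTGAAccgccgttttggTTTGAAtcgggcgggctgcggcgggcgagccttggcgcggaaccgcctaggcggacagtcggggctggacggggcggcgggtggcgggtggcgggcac

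**Figure D3:**
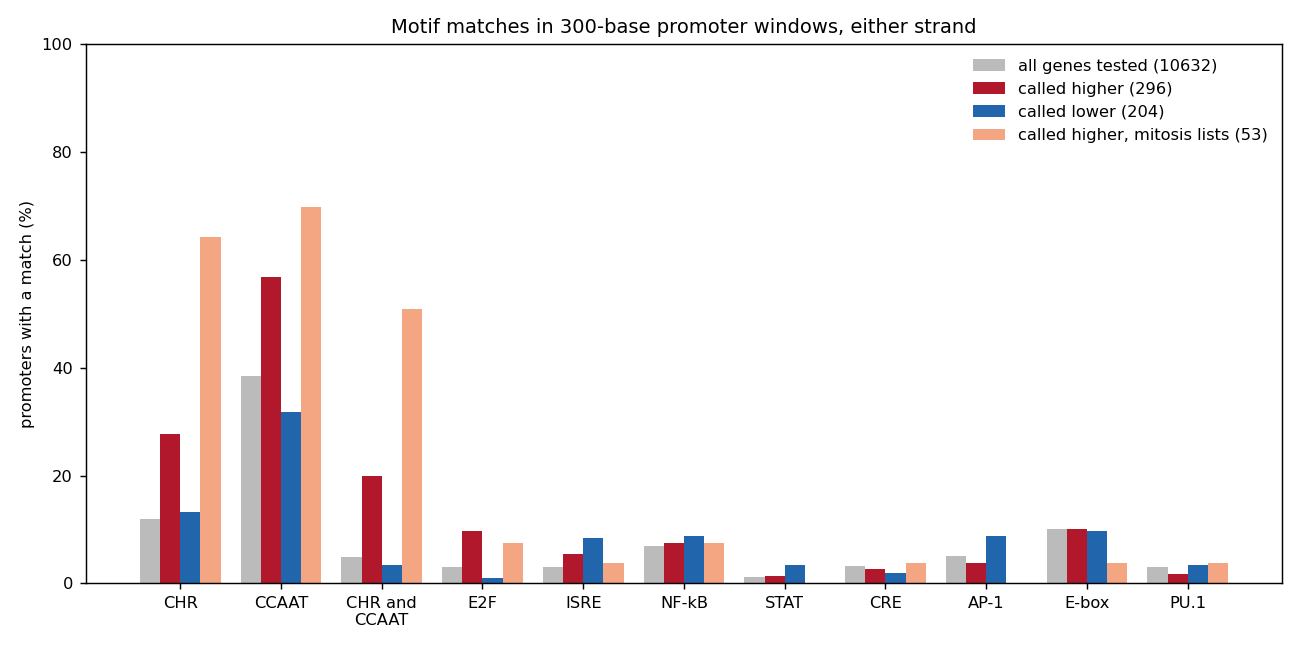
Bars give the percentage of 300-base promoter windows with at least 1 match to each motif on either strand, for all genes tested, genes called higher, genes called lower and genes called higher in the mitosis lists, with the number of promoters in the legend. CHR with CCAAT is at 50.9% in the mitosis genes called higher against 4.95% over all, and members of these lists not called are not shown. NF-kB motifs differ little, at 7.43% and 8.82% of genes called higher and lower against 7.0% over all.

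Tgfbi and Vldlr, which lie outside the cell cycle lists, had the smallest p-values, followed by Ncapd2 of the condensin list. The largest increases also lay outside the cell cycle lists. Tgfbi, which encodes a secreted matrix protein induced by TGF-beta (chromosome 13, 56609523 to 56639562, plus strand, GRCm38), was at 18.6, 24.2 and 19.4 CPM with PBS and at 103, 84.6 and 75.8 CPM with IL-1β. Vldlr, the very low density lipoprotein receptor gene (chromosome 19, 27216484 to 27254231, plus strand), was at 36.9, 36.3 and 23.8 CPM with PBS and at 129.8, 106 and 83.3 CPM with IL-1β. The lowest IL-1β library was far above the highest PBS library for both, and the fold changes were 4.21 and 3.31 (adjusted p = 2.3e-06 each). Few other genes of their pathways were called, against 2.52% higher and 1.83% lower over all genes tested. Of 28 genes of TGF-beta, BMP and SMAD signalling, Tgfbi rose and Ltbp3 fell (3.57% each). Of 38 genes of cholesterol synthesis and uptake, Vldlr alone was called (2.63%).

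Cd53, a tetraspanin gene of leukocytes, was at 7.40, 12.2 and 12.6 CPM with PBS and at 58.6, 53.5 and 40.8 CPM with IL-1β. It rose by 2.24 ± 0.31 as the sole call among 23 tetraspanins (4.35%, against 2.52% of all genes tested). Dlk1, an imprinted gene that encodes a Notch-related membrane protein, was at 2.83, 4.04 and 3.61 CPM with PBS and at 29.7, 14.1 and 20.2 CPM with IL-1β, and it rose by 2.61 ± 0.35. In both genes every IL-1β library was above every PBS library. Selp, the gene of P-selectin, which binds leukocytes and platelets, was at 31.7, 52.2 and 25.2 CPM with PBS and at 129, 100.0 and 71.1 CPM with IL-1β, and it rose by 1.46 ± 0.19. Vim, the gene of the filament protein vimentin, rose by 0.67 ± 0.11. Muc1, a membrane mucin gene, was at 0.677, 0.441 and 0.481 CPM with PBS and at 4.38, 4.41 and 4.53 CPM with IL-1β, and it rose by 3.05 ± 0.46.

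Col18a1 and Gpc3, a basement membrane collagen gene and a heparan sulfate proteoglycan gene chosen after their values were seen, rose by 1.95 ± 0.26 and 1.47 ± 0.17. Gpc3 was at 5.29, 5.95 and 6.25 CPM with PBS and at 16.3, 16.3 and 15.8 CPM with IL-1β, nearly the same in every library of a group. Hbb-bt, a beta globin gene, was at 8.68, 9.58 and 12.9 CPM with PBS and at 31.6, 25.6 and 37.5 CPM with IL-1β, and it rose by 1.61 ± 0.27. The 9 erythroid marker genes summed to 20.1, 17.1 and 32.6 CPM with PBS and to 42.9, 36.3 and 53.7 CPM with IL-1β. Without Hbb-bt the other 8 summed to 11.2, 7.42 and 20.2 CPM with PBS and to 12.9, 11.6 and 16.7 CPM with IL-1β, so that the groups overlapped, and 4 of the 6 markers tested had a negative fold change (median -0.48), Hbb-bs and Hba-a1 among them. Slc4a1, the anion exchanger gene that marks red cells, was at 0 in 5 of the 6 libraries and at 0.041 CPM in PBS replicate 1. Klf1, Hba-a1, Alas2 and Car1 were not called. The part of erythroid cells in the rise of Hbb-bt was not tested.

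**Figure D4:**
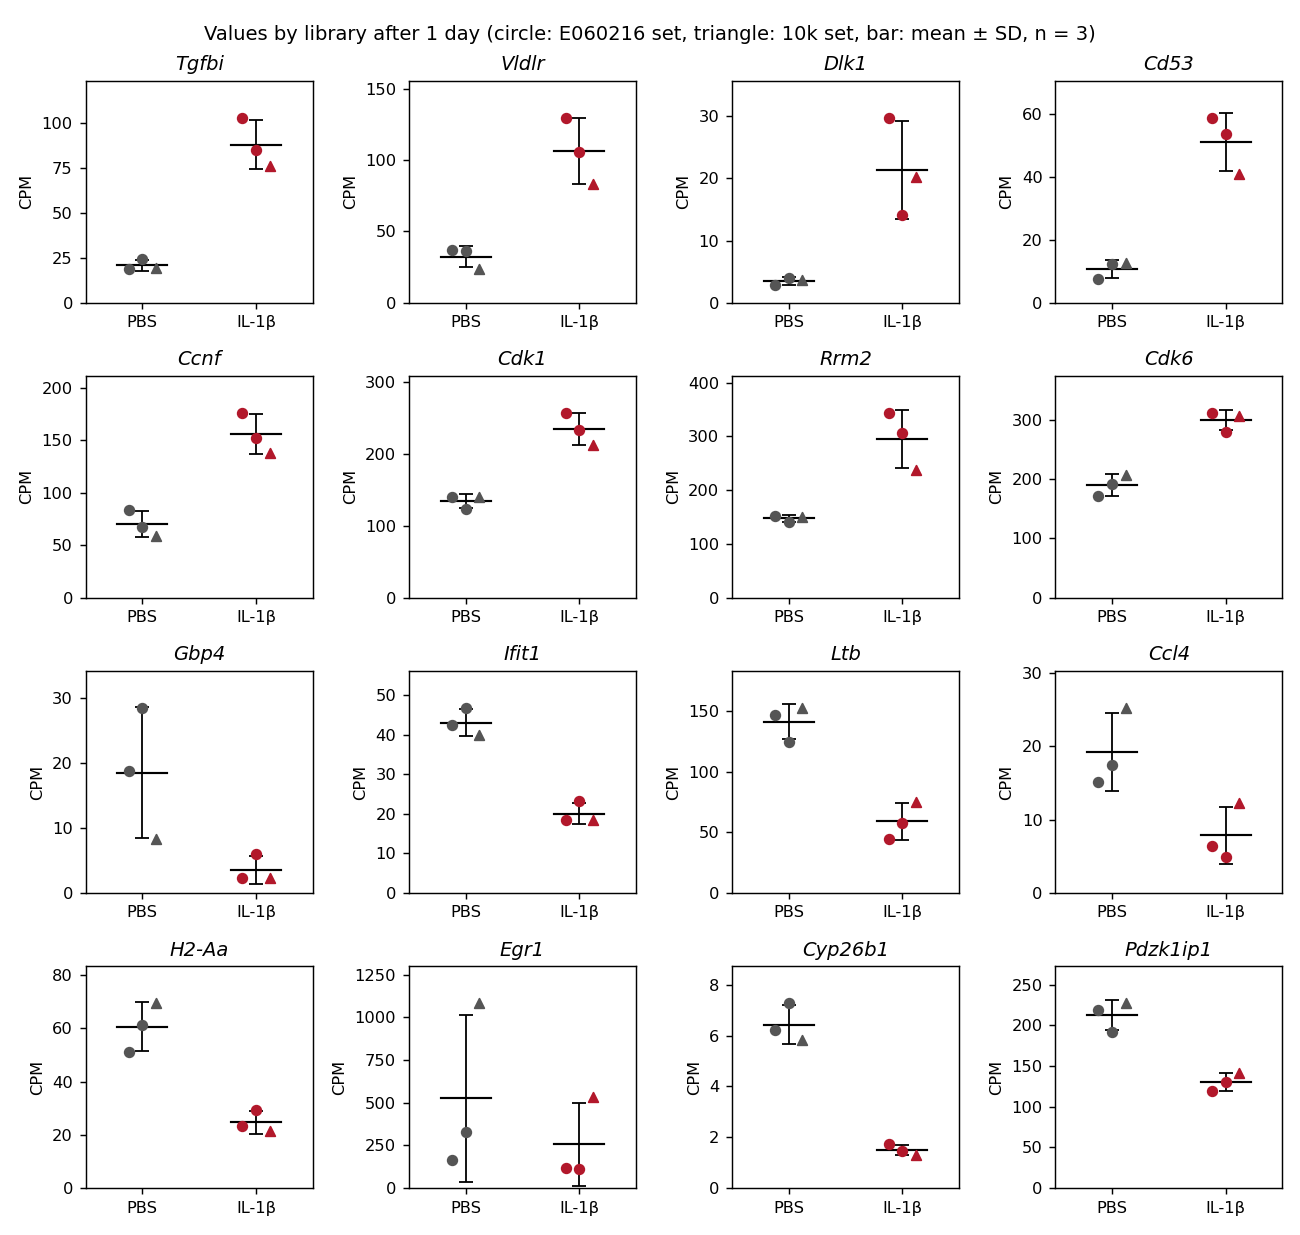
Each panel shows 1 gene in CPM for the 3 PBS and 3 IL-1β libraries of 1 day, with circles for the E060216 libraries, triangles for the 10k libraries, and a bar for the mean ± SD (n = 3). In 15 of 16 panels the groups do not overlap, and for Egr1 the 10k libraries lie far above the others in both groups.

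Genes of the IL-1 pathway itself were counted next. Of 23 genes of IL-1 family receptors and adaptors, none was called (median 0.06); without PBS replicate 3 or any of 3 of the 20-day libraries Il1r1 was. Il1r1 was at 12.7, 12.3 and 10.9 CPM with PBS and at 35.3, 26.3 and 16.0 CPM with IL-1β, with no overlap and a log2 fold change of 1.06 ± 0.29 (adjusted p = 0.0522, and 0.00762 in the fit of the 1-day libraries alone). Il1rap, the co-receptor gene, was at 31.0, 43.9 and 21.0 CPM with PBS and at 36.3, 28.6 and 16.4 CPM with IL-1β, and the groups overlapped. Of 25 NF-kB subunits, inhibitors and kinases, 1 rose and 3 fell (median -0.17); 3 fits that left out a 1-day library called none lower (IL-1β replicate 1, PBS replicate 1 or PBS replicate 2), and 3 called 1 (IL-1β replicates 2 and 3 and PBS replicate 3).

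Bcl3, which encodes a nuclear IkB protein that works with NF-kB p50 and p52, was at 15.6, 21.8 and 21.9 CPM with PBS and at 43.8, 38.2 and 29.9 CPM with IL-1β. It rose by 0.90 ± 0.16, with no overlap. Nfkbia, the gene of IkB alpha and a fast target of NF-kB, was at 179.8, 181 and 304 CPM with PBS and at 152, 141 and 239 CPM with IL-1β, overlapping, with both 10k libraries high. Within each title tag it was lower with IL-1β, and its log2 fold change was -0.31 ± 0.09 (adjusted p = 0.0678, and 0.0305 in the fit of the 1-day libraries alone). Cebpd, a factor of acute inflammation and myeloid genes, was at 3.42, 3.56 and 6.40 CPM with PBS and at 10.5, 7.63 and 9.83 CPM with IL-1β. It rose by 1.12 ± 0.25 without overlap, a call that ended without PBS replicate 1, PBS replicate 2 or IL-1β replicate 1 (adjusted p up to 0.107). Socs3, the feedback inhibitor gene of cytokine receptors, was at 14.4, 18.8 and 145 CPM with PBS and at 75.9, 42.9 and 159 CPM with IL-1β, so that the 2 10k libraries were alike and the difference lay in the E060216 libraries. Its log2 fold change was 1.25 ± 0.33, and its call ended without any 1 of the 4 E060216 libraries or of 4 libraries of 20 days (PBS replicates 2 and 4, IL-1β replicates 1 and 3), with an adjusted p up to 0.218.

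Guanylate-binding proteins and immunity-related GTPases had the largest share of members lower among the 63 lists. They are interferon-induced enzymes that attack the vacuoles of intracellular microbes. Of 18 tested, 10 fell and all 18 had a negative fold change, with a median of -0.59. The groups did not overlap for 12 of them, against 8.91% of all genes tested in that direction. Gbp4 was at 18.7, 28.5 and 8.32 CPM with PBS and at 2.25, 6.02 and 2.30 CPM with IL-1β, and Gbp6 was at 41.3, 39.3 and 18.5 CPM with PBS and at 9.73, 12.3 and 6.21 CPM with IL-1β. In both genes each IL-1β library was lower than the PBS libraries of its tag, and no values overlapped between the groups. Gbp4 fell by 2.31 ± 0.32 (adjusted p = 0.00105) and Gbp6 by 1.78 ± 0.22 (adjusted p = 0.000492). Gbp8, also called lower, overlaps Gbp4 on the same strand, so reads of both can be shared or dropped. Tgtp1, a T cell-specific GTPase gene by name, fell by 0.78 ± 0.12; its near-copy Tgtp2 can share its reads. The count was 6 without PBS replicate 2, 6 without IL-1β replicate 3 and 5 without IL-1β replicate 1.

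Of 54 other interferon-stimulated genes, 9 fell (16.7%, against 1.83% of all genes tested) and none rose (median -0.28), and 45 had a negative fold change. The count was 3 to 5 without 5 of the 6 1-day libraries (3 without IL-1β replicate 1; 4 without PBS replicate 2, PBS replicate 3 or IL-1β replicate 3; 5 without PBS replicate 1) and 17 without PBS 20-day replicate 4. Ifit1, which encodes a protein that blocks translation of viral RNA, was at 42.4, 46.7 and 40.0 CPM with PBS and at 18.5, 23.2 and 18.5 CPM with IL-1β. Its neighbour Ifit3 was at 8.24, 6.50 and 8.75 CPM with PBS and at 2.01, 1.40 and 2.05 CPM with IL-1β, and Rsad2, the gene of viperin, was at 54.1, 55.5 and 43.0 CPM with PBS and at 24.7, 33.1 and 27.3 CPM with IL-1β. All fell in each title tag without overlap, by 1.10 ± 0.15, 2.10 ± 0.33 and 0.83 ± 0.14. Ifit2, Oas2 and the Ifitm genes were not called.

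The ISRE (GAAA and GAAA with any 2 bases between, either strand) was in 3.06% of the 10632 promoters, in 9 of the 16 called lower in the interferon and antigen presentation lists with a promoter (56.2%), in 4.26% of the other 188 called lower and in 5.41% of those called higher. Interferon genes are known for this motif, and members of these lists that were not called were not counted. Whether the share differs between members that fell and the rest was not tested. ISRE and CHR matches shared bases in 6 promoters. The promoters of Ifit3 (chr19:34583329-34583528, plus strand) and Rsad2 (chr12:26456453-26456652, minus strand) are shown because both genes fell in every title tag, with ISRE matches in capitals.
Ifit3: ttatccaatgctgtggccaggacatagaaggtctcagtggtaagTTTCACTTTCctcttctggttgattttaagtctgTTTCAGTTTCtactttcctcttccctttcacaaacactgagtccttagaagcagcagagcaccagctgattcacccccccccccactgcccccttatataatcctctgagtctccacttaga
Rsad2: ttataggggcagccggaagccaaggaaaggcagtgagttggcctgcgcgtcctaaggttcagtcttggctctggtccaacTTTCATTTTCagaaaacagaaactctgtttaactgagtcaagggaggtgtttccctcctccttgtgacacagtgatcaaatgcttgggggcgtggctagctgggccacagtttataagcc

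Antigen presentation genes fell in smaller numbers. The shares were 16.7% of the class I list and 20.0% of the class II list, against 1.83% of all genes tested. Of 24 MHC class I and peptide loading genes, 4 fell (1 without IL-1β replicate 1; 2 without IL-1β replicate 2, PBS replicate 1 or 2, or, of the 20-day libraries, PBS replicate 1 or 2 or IL-1β replicate 1 or 3), and of 15 MHC class II genes and modulators, 3 fell (5 without PBS 20-day replicate 4). H2-Q6, a non-classical class I gene of a family of near-copies, was at 552, 526 and 554 CPM with PBS and at 309, 335 and 378 CPM with IL-1β, and it fell by 0.68 ± 0.09 (adjusted p = 0.000507). H2-Aa, a class II alpha chain gene, was at 51.1, 61.2 and 69.5 CPM with PBS and at 23.3, 29.3 and 21.2 CPM with IL-1β, and it fell by 1.30 ± 0.20. Both were lower in every IL-1β library. H2-Ob, whose product modulates peptide loading on class II, fell by 0.88 ± 0.15. Cd74, the class II chaperone gene, had -0.78 ± 0.21 (adjusted p = 0.0532, and 0.00486 in the fit of the 1-day libraries alone).

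Most macrophage and monocyte markers had lower values with IL-1β, as these genes did, and 9 of the 12 tested had a negative fold change (median -1.04). The 14 marker genes summed to 54.5, 52.7 and 60.9 CPM with PBS and to 38.0, 32.7 and 49.2 CPM with IL-1β, without overlap, and 1 was called lower (Spic). Cd68, the marker with the highest values, went the other way, with 13.1, 12.3 and 12 CPM with PBS and 19.1, 15.8 and 20.5 CPM with IL-1β, without overlap and not called. Adgre1 was between 0 and 2.94 CPM and Csf1r between 0.638 and 3.00 CPM over the 6 libraries. Their part in the fall of interferon, antigen presentation and chemokine genes was not tested. Sums of dendritic, B and plasma, T and NK, mast, megakaryocyte and stromal marker genes overlapped between the groups. Most of the dendritic sum was Bst2, which overlapped. Of 4 dendritic markers tested, none was called and 2 were lower without overlap, against 8.91% of all genes tested. Zbtb46 was at 5.72, 6.16 and 6.60 CPM with PBS and at 2.64, 2.83 and 3.64 CPM with IL-1β. Clec9a was at 1.55, 2.63 and 0.877 CPM and at 0.153, 0.518 and 0.397 CPM. The part of dendritic cells was not tested.

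Cytokine and chemokine genes fell where they changed. Of 30 tested, 6 fell (20.0%, against 1.83% of all genes tested) and none rose (median -0.38). The number that fell was 4 to 6 over the fits that left out 1 library. Ltb, the gene of lymphotoxin beta, was at 147, 125 and 153 CPM with PBS and at 44.5, 57.8 and 74.8 CPM with IL-1β. Every IL-1β library was at or below 74.8 CPM, against at least 125 CPM with PBS, and it fell by 1.28 ± 0.14 (adjusted p = 0.000269). Ccl4, a chemokine gene for monocytes and T cells, was at 15.1, 17.4 and 25.2 CPM with PBS and at 6.43, 4.87 and 12.2 CPM with IL-1β, and it fell by 1.36 ± 0.20. Ebi3, the gene of a subunit shared by IL-27 and IL-35, fell by 0.86 ± 0.12, and Cx3cl1, the fractalkine gene chosen after its values were seen, by 1.19 ± 0.21.

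Immediate early genes were lower within each title tag. Of 34 tested, 6 fell (17.6%, against 1.83% of all genes tested), with a median of -0.46. That count was 1 or 3 without PBS replicate 2 or 3. It was 0, 3 and 2 without replicates 1, 2 and 3 of IL-1β. Dusp2, a phosphatase gene that ends MAP kinase signals, was at 222, 273 and 479 CPM with PBS and at 118, 119 and 343 CPM with IL-1β. Rhob, a small GTPase gene, was at 63.1, 71.3 and 174 CPM with PBS and at 25.9, 30.9 and 105 CPM with IL-1β. In both genes the 10k libraries lay above the E060216 libraries of the same treatment, so that the groups overlapped while IL-1β was lower within each tag. Dusp2 fell by 0.87 ± 0.17 (not called without IL-1β replicate 1, IL-1β replicate 2 or PBS replicate 2, adjusted p up to 0.0754) and Rhob by 1.06 ± 0.15. Egr1, a zinc finger factor known to hold stem cells at rest, was at 162, 329 and 1082 CPM with PBS and at 118, 113 and 533 CPM with IL-1β. Its log2 fold change was -1.07 ± 0.22, and the call ended without PBS replicate 2 or any 1 of the 3 IL-1β libraries (adjusted p up to 0.0981).

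Of 33 marker genes of long-term stem cells, 7 fell (21.2%) and 1 rose (3.03%), against 1.83% and 2.52% of all genes tested (median -0.30). Without PBS replicate 1 or 2, 4 or 3 fell, and without replicate 1 or 2 of IL-1β, 2 fell in each fit. Pdzk1ip1, a membrane protein gene that marks dormant stem cells, was at 219, 192 and 227 CPM with PBS and at 119, 131 and 141 CPM with IL-1β, and it fell by 0.71 ± 0.09. Its IL-1β libraries were close together and below all PBS libraries. Txnip, an inhibitor of glucose uptake and thioredoxin, was at 1104, 1737 and 935 CPM with PBS and at 773, 706 and 652 CPM with IL-1β, and it fell by 0.80 ± 0.15 (not called without IL-1β replicate 1 or 2, adjusted p up to 0.0525). Among 13 genes of the retinoic acid pathway 3 fell (23.1%, against 1.83% of all genes tested), and 1 without PBS replicate 2 or IL-1β replicate 1. Cyp26b1, which degrades retinoic acid, was at 6.21, 7.27 and 5.82 CPM with PBS and at 1.73, 1.44 and 1.32 CPM with IL-1β. It fell by 2.10 ± 0.32 without overlap.

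Of the 283 genes called lower, 209 belonged to no list. By p, Tinagl1, which encodes a secreted matrix-associated protein, was among the first: it was at 40.2, 36.2 and 34.8 CPM with PBS and at 10.3, 15.3 and 14.4 CPM with IL-1β, and it fell by 1.47 ± 0.18. Ctsf, a lysosomal protease gene, was at 82.5, 80.2 and 68.3 CPM with PBS and at 32.2, 35.9 and 30.5 CPM with IL-1β, and it fell by 1.22 ± 0.16. In both genes the highest IL-1β library was below the lowest PBS library. Shisa5, an apoptosis-linked membrane protein gene, fell by 0.63 ± 0.08, and Trib3, a pseudokinase gene induced by amino acid stress, by 1.37 ± 0.23. Pygm, the muscle glycogen phosphorylase gene, picked once its values were known, fell by 1.52 ± 0.21. Thbs1, the gene of thrombospondin 1 of platelets and matrix, was at 66.7, 52.1 and 32.6 CPM with PBS and at 8.76, 11.3 and 11.1 CPM with IL-1β, and it fell by 2.23 ± 0.41 (adjusted p = 0.0532 without IL-1β replicate 1).

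Lineage and growth programs were counted in the same way. Of 32 granulocyte and monocyte priming genes none was called (median -0.01), and at most 2 higher and 3 lower in any fit that left out 1 library, both without PBS 20-day replicate 4. Among 31 genes of megakaryocytes and platelets 2 rose (6.45%) and 3 fell (9.68%), against 2.52% and 1.83% of all genes tested. The number that rose was 1 in 10 of the 14 fits that left out a library, and the number that fell was 1 without IL-1β replicate 1. Of 23 genes of multipotent progenitors and lymphoid priming, 1 rose (4.35%) and 2 fell (8.70%), and none fell without PBS replicate 2 or IL-1β replicate 1. None of 53 ribosome biogenesis genes (median 0.03), 84 cytosolic ribosomal protein genes (median 0.04) or 45 translation factor genes (median 0.13) was called, and leaving out 1 library gave at most 1 call in each direction, in the translation factors. The 96 nuclear genes of the respiratory chain had no call either with all libraries, although 91 of them had a positive fold change (median 0.25), and 15 were called higher without PBS 20-day replicate 4. The 12 mitochondrial transcripts tested had a median of -0.39 with no call, 0.02 in the 10k libraries and -0.58 in the E060216 libraries.

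A search without lists gave related groups. Of 425 families of genes that share the letters of their symbol, with at least 5 members tested, 9 had at least 3 members and 25% of members called in 1 direction. Gbp (6 of 10 lower), Ccl (3 of 9 lower) and H2- (6 of 23 lower) lay on the lower side. Mcm (6 of 10 higher), Cdca (5 of 7), Rad (7 of 18), Kif (9 of 34), Sept (3 of 11) and Nup (5 of 20) lay on the higher side. The kinesin family as a whole had a median of 0.01, and the list of spindle kinesins and microtubule factors 0.80. Along the chromosomes, 2 runs of 3 neighbouring genes tested were called in the same direction: Gbp4, Gbp10 and Gbp6 on chromosome 5 (lower) and Birc5, Tha1 and Socs3 on chromosome 11 (higher). Neither run held without single libraries: the call of Tha1 ended without any 1 of the 6 1-day libraries (adjusted p up to 0.127), and that of Gbp10 without replicate 1 or 3 of either 1-day group (adjusted p up to 0.0754). Gbp10 was at 2.99, 1.21 and 2.12 CPM with PBS. With IL-1β it was at 0.080, 0.248 and 0.073 CPM, near the level of 3 counts. Of 1300 pairs of genes that start back to back within 1 kb, both rose in 5 (0.385%, against 0.123% of all 14594 neighbouring pairs). Oip5 and Nusap1, 1 of the 5 pairs, overlap only in a short stretch at their starts. The strand setting of the counts is not given, so reads of that stretch may not be told apart. Gbp4 and Gbp8 overlap on the same strand, so strand would not separate their reads.

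The 1-day genes were then read at 20 days in the other 8 libraries. Of the 389 genes called higher at 1 day, 108 were also called higher at 20 days (27.8%, and 17.7% of the 609 called higher there, 3.94% of genes tested) and 1 was called lower. Of the 283 called lower, 78 were also called lower (27.6%, and 14.3% of 545, 3.52% of genes tested) and 15 were called higher. An interaction term, which sets the effect at 20 days against that at 1 day, was called for 331 genes (2.14%), with 65 of those called higher at 1 day and 66 of those called lower among them. The 1-day values enter both the choice of these genes and the interaction, so the direction of the difference among them is not independent of the choice. Tgfbi and Vldlr had 2.21 ± 0.12 and 1.75 ± 0.10 at 20 days, close to their 1-day values, and Gbp4 and Gbp6 had -2.22 ± 0.27 and -1.83 ± 0.19. Lig1 (-0.03 ± 0.11), Cdc6 (0.05 ± 0.11) and Tk1 (0.07 ± 0.12) were not called at 20 days, nor were Ccl4 (0.30 ± 0.17) and Bcl3 (-0.27 ± 0.14), and each of these 5 differed from its 1-day value by the interaction test. Other named genes of division were still called higher at 20 days, without a called interaction. Among them were Cdk6 (0.92 ± 0.08), Cenpa (0.68 ± 0.07), Kif2c (0.67 ± 0.10), E2f8 (0.64 ± 0.10), Top2a (0.40 ± 0.10) and Mki67 (0.34 ± 0.10).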

How the data were processed

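RNA of sorted SLAM cells was amplified with a low-input SMARTer kit, made into NexteraXT libraries and read from 1 end, per the labels' protocols. Without roles, GRCm38.p4, DESeq2 1.12.3, Cuffdiff, Cufflinks 2.0.2, HTSeq 0.6.1, STAR 2.4.2a and Trimmomatic 0.32 are listed, per the submitters' processing notes. Annotation and strand setting: not given in the sources used here. Values are the authors' deposited raw counts per gene symbol, whole numbers with no normalization. Amplified reads carry no molecular identifiers, so depth gives counting error only.

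Counts were fitted with edgeR 4.0.16 in R 4.3.3: TMM factors, filterByExpr (minimum count 10), two-sided quasi-likelihood F-test with robust estimation, and Benjamini-Hochberg adjustment over 15466 genes. The fit took all 14 libraries, a title tag term and an IL-1β effect per duration (8 residual degrees of freedom, biological coefficient of variation 0.198), so the 20-day libraries help set the spread. The SE is the absolute log2 fold change over the square root of F and is approximate. The fit was tested on simulated data. Printed CPM values use TMM factors, except sums over lists, markers and the 3-count level, which use library totals. In chi-square comparisons of counts, all 6 pairs of replicates differed beyond sampling noise (10.7 to 71.1 per degree of freedom). Counts carry symbols only, and GENCODE M21 gave positions for 14615 of those tested.

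The members and the 63 gene lists were chosen with earlier results of these data known, and genes can belong to several lists. Named genes follow a rule: the 10 largest and 10 most significant changes in each direction (mean of at least 1 CPM for the former, predicted genes left out), from each list up to 3 called members (2 by smallest p where none is called), 3 of each symbol family, the sort and IL-1 receptor genes, and members of the interferon, IL-1 and NF-kB lists. Not every such gene is named, and some are not reported here. Named outside it, after their values were seen, are Top2a, Mki67, Ccnd2, Col18a1, Gpc3, Socs3, Cx3cl1, Pygm, Spic, the other marker genes and the neighbouring genes. Alternatives tried were the 1-day libraries alone, no title tag term, a replicate block, upper-quartile and DESeq2 (1.42.0) size factors, the DESeq2 Wald test, other filters, no robust fit, E060216 alone, and each library left out.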

Additional observations from a re-analysis of the deposited data

Results flagged for a closer look

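The IL-1β effect differed between 20 days and 1 day (edgeR's interaction test, adjusted p under 0.05) for 22 of the genes named above. Each difference below is the 20-day minus the 1-day log2 fold change. Among genes of division, it was -0.73 for Ccnf, -0.67 for Espl1, -0.54 for Ncapd2, -0.72 for Rad54l, -0.74 for Cdc6, -0.79 for Lig1, -0.91 for Tk1, -0.75 for Kpna2 and -0.64 for Dnmt1. These 9 genes rose at 1 day, and their 20-day changes ran from -0.03 to 0.42. Other named genes of division, such as Cenpa, Kif2c and Cdk6, had no called difference and were called higher at 20 days.

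Among the other genes that rose at 1 day, the difference was -1.83 for Dlk1, -2.51 for Muc1 and -1.17 for Bcl3, while Hbb-bt rose further (1.50 higher at 20 days).

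The genes that fell at 1 day had differences of 0.76 for Ltb, 1.65 for Ccl4, 1.18 for Ebi3, 0.96 for Pdzk1ip1, 1.40 for Ctsf, 1.79 for H2-Ob and 1.88 for Spic. H2-Ob had -0.88 at 1 day and 0.91 at 20 days, and Spic -1.13 and 0.74. The sort genes Slamf1 and Flt3, not called at 1 day, had differences of 0.82 and 1.18. The durations were run under different title tags, so duration and tag cannot be told apart in the levels, and each effect was taken within its own tags.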

How the results depend on the processing

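At 1 day 672 genes were called, 389 higher and 283 lower. The count was 1200 (709 higher, 491 lower) with only the 6 libraries of 1 day, 290 (188 and 102) without the title tag term, 1398 (741 and 657) with the DESeq2 Wald test and 1820 (1082 and 738) in the E060216 libraries alone. Leaving out 1 library gave 228 to 1244 calls, 158 to 758 higher and 59 to 486 lower. Of the 672 calls, 290 remained without the tag term and 668 with DESeq2. The other settings (upper-quartile or DESeq2 size factors, no filter, a mean of at least 1 CPM, no robust fit) gave 634 to 811 calls. Calls that differed between 20 days and 1 day numbered 331, and 23 without the tag term, 1182 with DESeq2, 520 with a mean of at least 1 CPM, and 34 to 604 with 1 library left out. No named gene changed direction with its call under these settings. Of the 70 named genes, 8 lost their call without the tag term, and 5 not called became called in the 1-day libraries alone. The cause was not tested.

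Groups share replicate numbers, which could mark pairs, and a replicate block gave 383 calls (242 higher, 141 lower) and 23 between the durations. The deviations of same-numbered 1-day libraries correlated at 0.18 (replicate 3), 0.12 (replicate 2) and -0.03 (replicate 1). Same-numbered libraries also share a title tag, so each value reflects the tag as well. The differently numbered pairs within E060216 correlated at 0.10 and 0.10. Within E060216, 2 libraries a group have mirrored deviations, which cannot decide the question. The numbers were not taken as pairs. With 3 libraries a group, changes in genes near 3 counts per library (0.108 to 0.139 CPM) in both groups are likely to have been missed.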
